A study of Mus musculus with 12 samples.

Results

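The transcripts of 10 genes of the bone morphogenetic protein (BMP) pathway were followed in mouse intestinal tumor organoids, out of 24906 genes in each expression table. They were taken by gene symbol and are the ligands Bmp2, Bmp4 and Bmp7, the receptors Bmpr1a, Acvr1 and Bmpr2, the pseudoreceptor Bambi, the secreted antagonists Nog and Grem1, and Bmp1, which shares the name but is a metalloprotease. None of the 7 that were abundant enough to test passed the test for a dox change in either environment. Bmp1 was higher with dox in all 5 dox pairs of the same line, as were 8.7% of the genes tested, and it was also higher in the mock pair, by 0.44 on the log2(FPKM + 1) scale. On plastic, Bmp1, Acvr1 and Bmpr2 were higher in every dox library than in any untreated library, as were 7.87% of the genes tested. Nog was listed at 0 in all 12 libraries.

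BMP ligands are secreted dimers that bring together type I and type II serine/threonine kinase receptors. The type I receptor then phosphorylates SMAD1, SMAD5 or SMAD9, which enter the nucleus with SMAD4 and switch on targets such as the Id genes. Secreted antagonists hold the ligands away from their receptors, and in the intestine low BMP activity at the crypt base goes with stem cell maintenance while higher activity towards the villus goes with differentiation.

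All 12 libraries came from organoids, epithelial cell clusters grown from small intestinal tumors of Smad4KO;BRAFV600E/+ mice, and all are labelled as carrying pINDUCER-SMAD4, a lentiviral vector from which doxycycline (dox) induces SMAD4. The gene alterations of the source mice were made with Villin-CreERT2, which acts in the intestinal epithelium, and the transduced organoids were selected with puromycin. Organoids were grown in BME, a basement membrane extract, or on plastic, and received 4 µg/mL dox or vehicle for 48 h in a medium that held Noggin protein, so a BMP antagonist was present in every group. The BME groups were 3 untreated libraries of lines 682, 700 and 889 and 2 with dox, of lines 700 and 889. A further BME library, of line 682, is labelled as dox but also as mock, although its genotype label names the SMAD4 construct. The plastic groups were 3 untreated libraries of lines 560, 700 and 889 and 3 of the same lines with dox. A line number is shared by the untreated and dox libraries of the same organoids, and 1 line is 1 sample of each group. The mock library was counted with the controls, as the study counts it, giving 4 control and 2 dox libraries in BME. Line 682 therefore entered the BME controls both as the untreated and as the mock library.

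Levels are FPKM, fragments scaled to transcript length and, in these tables, to a size factor of the library, so they can be compared between genes within a library. Reads rebuilt from them totalled 14521354 to 16357108 in the BME libraries and 17001336 to 21018374 in the plastic ones. In bulk RNA, fewer cells of a type and less RNA per cell cannot be told apart. All 7 epithelial markers were above 1 FPKM in every library. Their summed level was 7502 to 9520 FPKM in the BME dox libraries against 3892 to 4876 in the untreated and mock ones, and 11670 to 17190 with dox against 13020 to 14200 on plastic. Krt8, Krt18 and Krt19 made up most of the sum. Their dox minus control changes in BME were 1.13, 0.91 and 1.03 on the log2(FPKM + 1) scale. Those of Cdx2, Cdh1, Vil1 and Epcam were 0.04, 0.24, 0.33 and 0.45, and none of these markers passed the test for a dox change there. The 9 stromal markers summed to at most 7.11 FPKM, in the dox library of line 889 in BME, and to at most 0.464 on plastic, where Thy1 and Lum were at 0. The 4 endothelial markers summed to 0 to 3.65 FPKM. The 5 leukocyte markers summed to 2.71 to 38.7 FPKM, nearly all of it Cd68, with Ptprc at most 0.0958. The part of these marker levels in the changes below was not tested. Smad4 was higher with dox in all 5 dox pairs, by 1.28 to 4.88 on the log2(FPKM + 1) scale, and by 0.19 in the mock pair.

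The sequence just before the start sites of the 3 receptor genes is shown so that the genes that were higher with dox on plastic (Acvr1, Bmpr2) can be set beside one with little difference there in 2 of 3 lines (Bmpr1a). Each line gives the 250 bases before the RefSeq start in build GRCm38.p6, 5′ to 3′ on the strand of the gene. Capitals mark GGCGCC, a GC-rich SMAD-binding motif, and GTCT, the core of the SMAD box, each searched on both strands.
Acvr1, chr2:58566829-58567078, minus strand: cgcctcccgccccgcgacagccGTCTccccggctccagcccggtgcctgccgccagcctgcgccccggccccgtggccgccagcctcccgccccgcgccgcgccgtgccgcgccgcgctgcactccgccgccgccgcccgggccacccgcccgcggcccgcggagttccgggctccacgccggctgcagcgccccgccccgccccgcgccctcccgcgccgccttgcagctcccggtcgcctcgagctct
Bmpr1a, chr14:34502547-34502796, minus strand: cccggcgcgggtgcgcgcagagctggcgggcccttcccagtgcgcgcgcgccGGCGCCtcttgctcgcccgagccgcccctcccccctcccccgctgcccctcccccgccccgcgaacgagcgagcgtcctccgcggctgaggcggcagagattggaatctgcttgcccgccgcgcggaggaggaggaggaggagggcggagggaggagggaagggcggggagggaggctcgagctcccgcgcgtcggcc
Bmpr2, chr1:59764029-59764278, plus strand: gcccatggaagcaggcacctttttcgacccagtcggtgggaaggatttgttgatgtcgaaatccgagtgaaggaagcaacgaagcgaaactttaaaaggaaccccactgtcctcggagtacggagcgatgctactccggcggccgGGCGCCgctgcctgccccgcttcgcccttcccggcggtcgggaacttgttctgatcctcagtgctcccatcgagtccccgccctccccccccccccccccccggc
Bmpr1a and Bmpr2 each hold 1 GGCGCC and no GTCT, and Acvr1 holds 1 GTCT and no GGCGCC. Over 32851 mouse promoter windows of the same length, 9.59% held GGCGCC and 82.9% held GTCT, so a GTCT match is the common case. The windows were 85.6% G and C for Acvr1, 78.8% for Bmpr1a and 64% for Bmpr2. These matches describe the letters only, and no binding was measured in these libraries. RefSeq windows were matched for 5 of the 10 genes.

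In untreated organoids in BME the order of mean levels was Bmpr1a (37.2 ± 8.49 FPKM, SD, n = 3), Bmp7 (19.2 ± 2.92), Acvr1 (11.4 ± 1.12), Bmpr2 (9.16 ± 1.65), Bmp1 (4.57 ± 1.21), Bmp4 (3.26 ± 2.62), Bmp2 (2.54 ± 1.22) and Bambi (0.343 ± 0.0483). Bmpr1a lay above Bmp7 in every untreated BME library. Acvr1 and Bmpr2 overlapped between libraries, as did Bmp1, Bmp4 and Bmp2. On plastic the untreated order was Bmpr1a (17.0 ± 5.89 FPKM), Acvr1 (13.7 ± 2.0), Bmp1 (11.8 ± 1.66), Bmpr2 (6.77 ± 4.01), Bmp7 (5.55 ± 4.45), Bmp2 (2.63 ± 1.64), Bmp4 (1.37 ± 0.805) and Bambi (0.203 ± 0.206). There the neighbours from Bmpr1a to Bmp1 overlapped, as did Bmpr2 and Bmp7, Bmp7 and Bmp2, and Bmp2 and Bmp4. The tables of the 2 environments were normalized separately, so these orders hold within a table and levels were not tested between them.

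**Figure D1:**
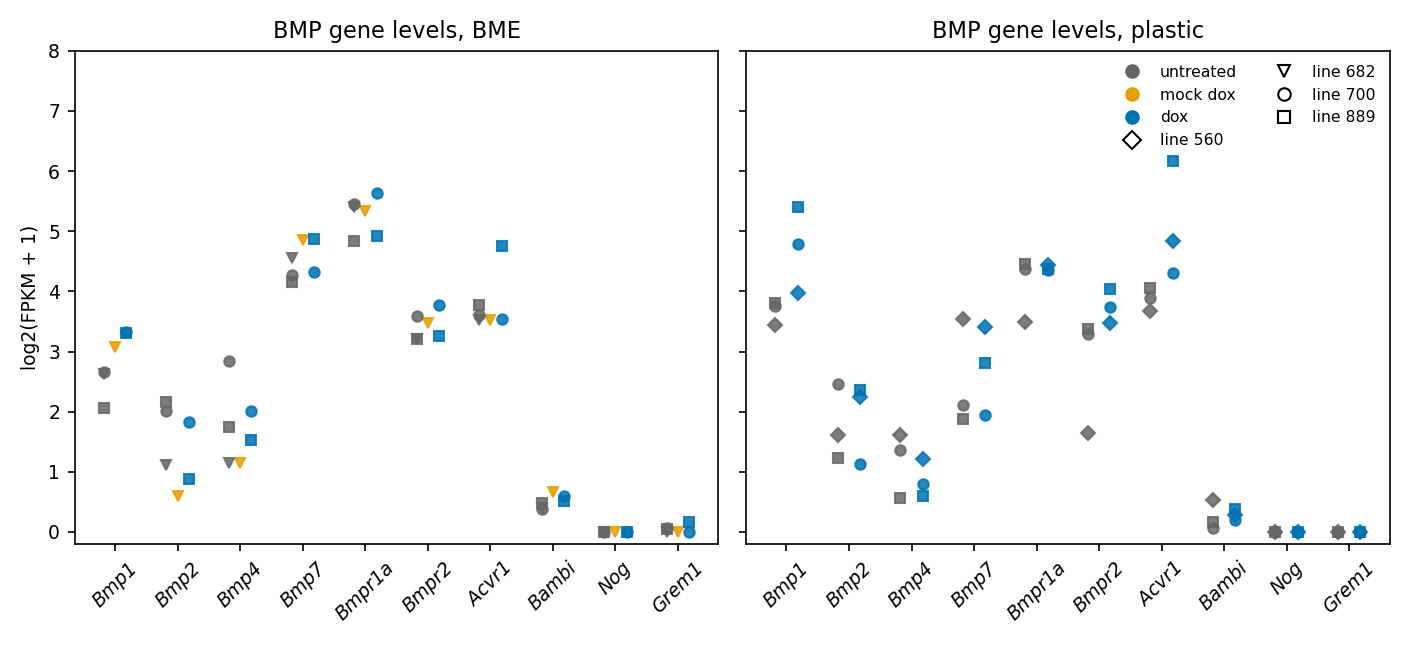
Level of each BMP gene in each library as log2(FPKM + 1), in BME (left) and on plastic (right). Each point is 1 library, colored by treatment and shaped by organoid line; receptors, Bmp7 and Bmp1 lie above Bmp2 and Bmp4 in most libraries, and Bambi, Nog and Grem1 lie at or near 0.

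Dox was compared with control by limma on log2(FPKM + 1), with a call defined as an adjusted p below 0.05 together with an absolute change above 1. Of the 10 genes, 7 passed the filter of a mean of 0.5 FPKM in each table, and Bambi, Nog and Grem1 did not. None of the 7 was called in BME, where 0.0231% of 12996 tested genes were called (3 genes, and 0 with the line as a replicate block). None was called on plastic, where 0.0324% of 12333 genes were called (4 genes, and 7 with the block). With so few genes called anywhere, no call among 7 genes tells little about them.
At an unadjusted p under 0.05, 1 of the 7 was higher in BME (Bmp1), beside 2.62% of all genes, and 2 on plastic (Bmp1 and Acvr1), beside 4.56%. Groups that did not overlap, with dox above, were found for 1 gene in BME (Bmp1), beside 6.33% of all genes, and for 3 on plastic (Acvr1, Bmp1 and Bmpr2), beside 7.87%. Higher values in all 5 dox pairs were found for Bmp1 and Bmpr2, beside 8.7% of the genes tested in both tables. Both were also higher in the mock pair. For Bmpr2 that pair differed by 0.27, more than the BME dox pairs of lines 700 and 889 (0.18 and 0.05). The change was positive for 6 and negative for 1 of the 7 in each environment, beside 49% positive in BME and 51.1% on plastic over all genes tested. In BME these include Bmp4 at 0.05 and Bmpr1a at 0.02, and with the line as a replicate block 5 were positive and 2 negative. Its median was 0.14 in BME and 0.29 on plastic, against -0.01 and 0.01 over all genes tested. The difference of the dox change between environments was called for none of the 7 and for 0% of 11977 genes (303 at an unadjusted p under 0.05).

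**Figure D2:**
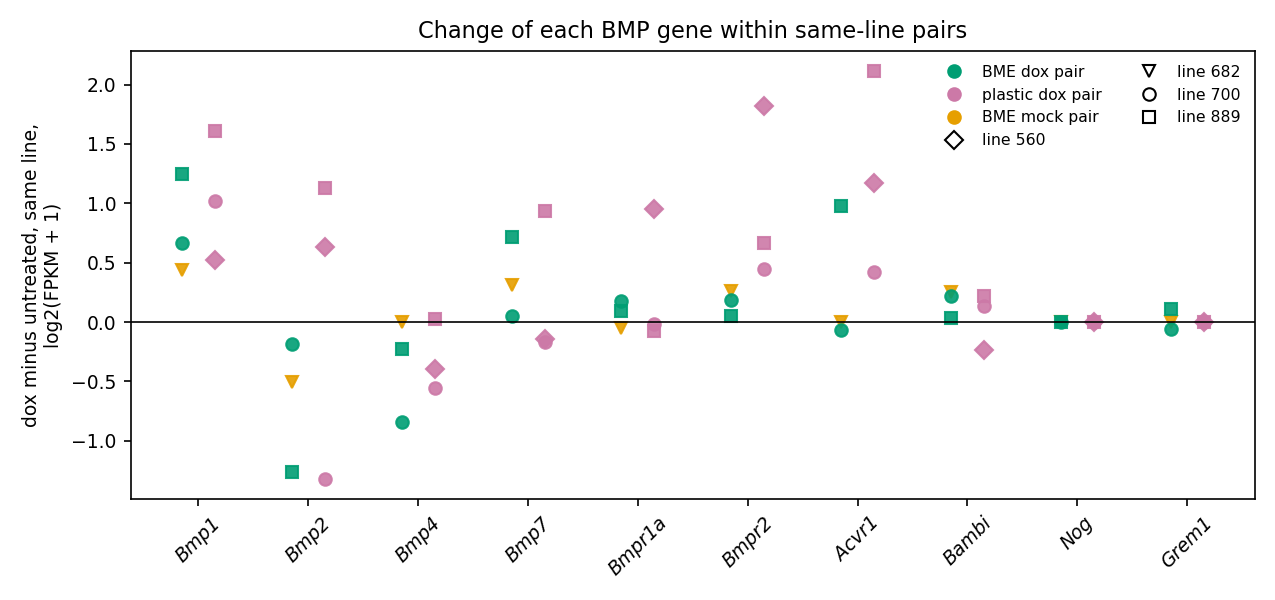
Dox minus untreated of the same line, as a difference of log2(FPKM + 1), for each BMP gene in 2 BME dox pairs, 3 plastic dox pairs and the BME mock pair. All dox pairs of Bmp1 and Bmpr2 lie above 0, as do their mock pairs, and the dox pairs of Bmp2 spread from -1.32 to 1.13.

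Acvr1 encodes the type I receptor ALK2, which binds ligands such as BMP7. In BME its level was 10.5, 11.1 and 12.7 FPKM in the untreated libraries of lines 682, 700 and 889, 10.5 in the mock library, and 10.6 and 26.0 in the dox libraries of lines 700 and 889. Only the dox library of line 889 stood apart in BME, and that of line 700 lay within the controls. On plastic Acvr1 was at 11.7, 13.8 and 15.7 FPKM in untreated lines 560, 700 and 889 and at 27.5, 18.7 and 71.2 FPKM in the same lines with dox. Every dox library lay above every untreated one, by 2.35-fold, 1.36-fold and 4.54-fold within lines. The highest level was higher than 91.5% of the genes expressed in its library. The limma change was 0.54 in BME (SE 0.33, adjusted p = 0.959) and 1.23 on plastic (SE 0.47, unadjusted p = 0.0360, adjusted p = 0.583). It thus failed the correction in both. Without the dox library of line 889 the BME change was -0.07, and without that of line 700 it was 1.15. On plastic it was 0.70 without the dox library of line 889. The change was larger on plastic by 0.69, with a 95% interval from -0.69 to 2.07. Cd68 was at 38.7 FPKM in the plastic dox library of line 889, where Acvr1 was highest. The leukocyte gene Ptprc was at most 0.0359 FPKM on plastic. In BME the dox library of line 889 was also highest in Acvr1 but had the lowest Cd68, at 6.04 FPKM. The part of Cd68-expressing cells in these Acvr1 values was not tested.

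Bmpr2 encodes the type II receptor that most BMP ligands use. In BME it was at 8.21, 11.1 and 8.20 FPKM in untreated lines 682, 700 and 889, at 10.1 in the mock library, and at 12.7 and 8.51 with dox in lines 700 and 889. The BME groups overlapped, and line 700 was the higher of the lines with and without dox. On plastic Bmpr2 was at 2.14, 8.83 and 9.33 FPKM in untreated lines 560, 700 and 889 and at 10.1, 12.4 and 15.4 with dox. The groups did not overlap, and the largest difference, 4.72-fold in line 560, came with an untreated level far below those of the other lines. The limma change was 0.15 in BME (SE 0.21, adjusted p = 0.965) and 0.98 on plastic (SE 0.48, adjusted p = 0.649), and the 95% interval on plastic ran from -0.18 to 2.14. Without the untreated library of line 560 the plastic change was 0.42. With the line as a replicate block, the plastic change of 0.98 had an unadjusted p = 0.0260 and still failed the correction (adjusted p = 0.311).

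Bmpr1a encodes the type I receptor ALK3, a receptor for BMP2 and BMP4 that restrains crypt growth in the intestine. In BME it was at 41.1, 43.0 and 27.4 FPKM in untreated lines 682, 700 and 889, at 39.6 in the mock library, and at 48.9 and 29.3 with dox in lines 700 and 889. The libraries separated by line, with line 889 lowest, rather than by dox. On plastic it was at 10.2, 19.8 and 21.0 FPKM in untreated lines 560, 700 and 889 and at 20.7, 19.5 and 19.8 with dox. Lines 700 and 889 differed little between arms, and line 560 was 2.03-fold higher with dox. By limma, the Bmpr1a difference was 0.02 in BME (SE 0.27, adjusted p = 0.995, 95% interval -0.63 to 0.68) and 0.29 on plastic (SE 0.29, adjusted p = 0.851, interval -0.41 to 0.98). In the untreated library of line 560 both Bmpr1a and Bmpr2 were at their lowest of the 6 plastic libraries.

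**Figure D3:**
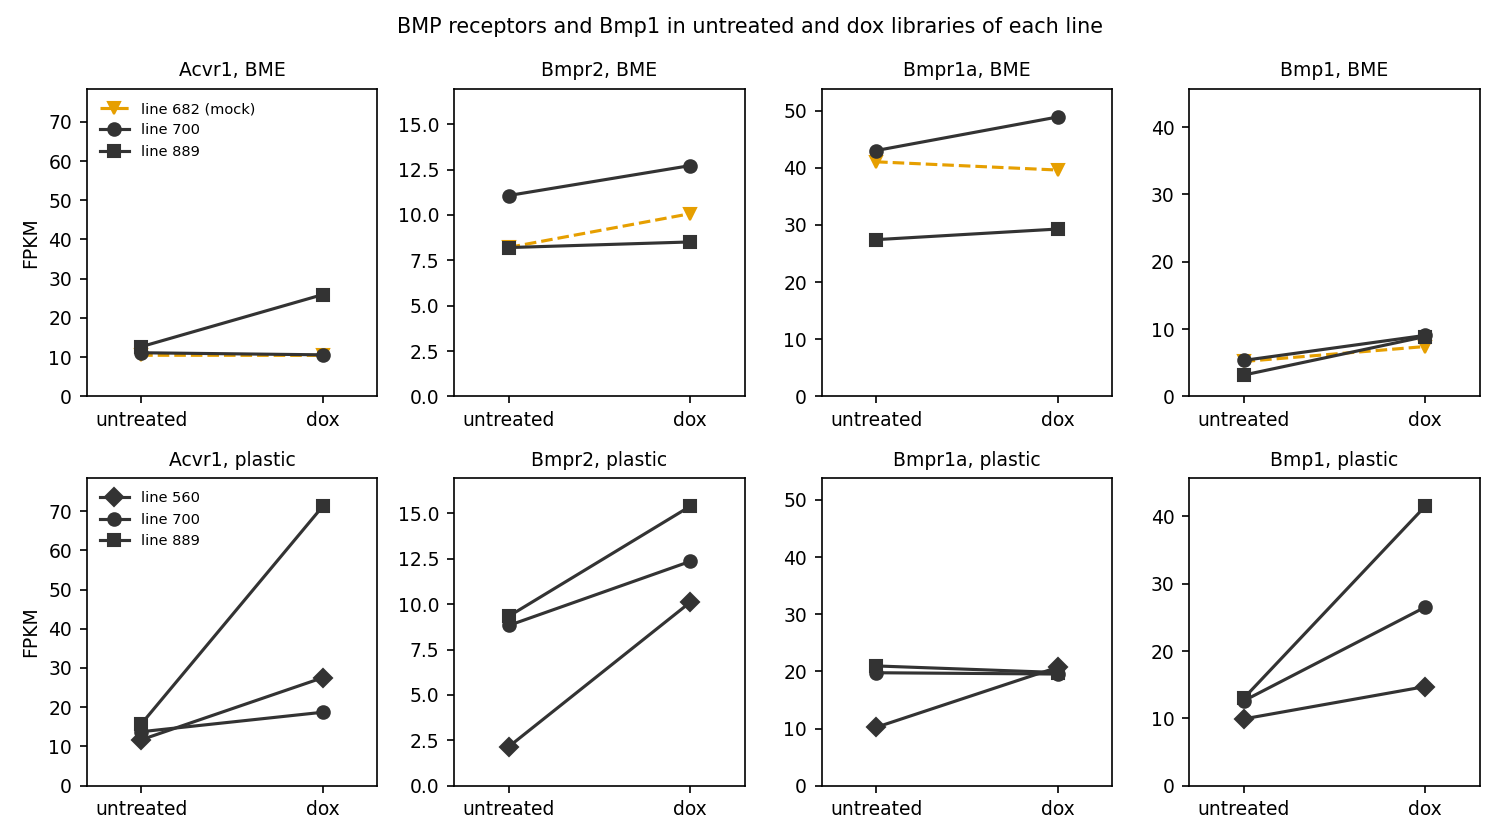
FPKM of Acvr1, Bmpr2, Bmpr1a and Bmp1 in the untreated and dox libraries of each line, in BME (top) and on plastic (bottom), with a line joining libraries of the same organoid line and the mock pair dashed. On plastic the dox end is higher in every line for Acvr1, Bmpr2 and Bmp1, while Bmpr1a is nearly flat in lines 700 and 889.

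Bmp7 was the most abundant of the 3 ligands in every library except the untreated library of line 700 on plastic, where Bmp2 was higher. In BME Bmp7 was at 22.4, 18.4 and 16.8 FPKM in untreated lines 682, 700 and 889, at 28.1 in the mock library, and at 19.1 and 28.2 with dox in lines 700 and 889. Line 700 was alike in both arms, and the mock library lay as high as the dox library of line 889. On plastic it was at 10.7, 3.32 and 2.66 FPKM in untreated lines 560, 700 and 889 and at 9.59, 2.85 and 5.99 with dox. Line 560 had the highest level in both arms. By limma, the Bmp7 difference was 0.14 in BME (SE 0.26, adjusted p = 0.973) and 0.21 on plastic (SE 0.55, adjusted p = 0.957).

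Bmp2, a ligand of differentiating epithelium, was low and varied between lines. In BME it was at 1.16, 3.01 and 3.45 FPKM in untreated lines 682, 700 and 889, at 0.520 in the mock library, and at 2.54 and 0.851 with dox in lines 700 and 889. It was lower than the untreated partner in both dox pairs and in the mock pair. On plastic it was at 2.05, 4.48 and 1.36 FPKM in untreated lines 560, 700 and 889 and at 3.72, 1.19 and 4.14 with dox. Lines 560 and 889 were higher with dox and line 700 was lower, so the pairs on plastic did not share a direction. The limma change was -0.11 in BME (SE 0.52, adjusted p = 0.993) and 0.15 on plastic (SE 0.45, adjusted p = 0.966). With the line as a replicate block, the BME change was -0.72 (unadjusted p = 0.0806, adjusted p = 0.677). From 27 to 313 rebuilt reads lay behind a Bmp2 value.

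Bmp4, known mainly as a ligand of the mesenchyme beneath the crypts, was also low. In BME it was at 1.21, 6.21 and 2.37 FPKM in untreated lines 682, 700 and 889, at 1.22 in the mock library, and at 3.03 and 1.88 with dox in lines 700 and 889. On plastic it was at 2.05, 1.57 and 0.485 FPKM in untreated lines 560, 700 and 889 and at 1.32, 0.748 and 0.511 with dox. It was lower with dox in 4 of 5 dox pairs, with line 889 on plastic the exception. By limma, the Bmp4 difference was 0.05 in BME (SE 0.52, adjusted p = 0.995) and -0.31 on plastic (SE 0.34, adjusted p = 0.866). Over 11 alternative settings or left-out libraries the plastic change lay between -0.62 and -0.095. With the line as a replicate block, the BME change turned to -0.53 (unadjusted p = 0.0455, adjusted p = 0.673), since line 682, whose control libraries were both low, has no dox library. On plastic 16 to 83 rebuilt reads lay behind a Bmp4 value.

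Bmp1 is not a BMP ligand but a secreted protease that trims procollagen and cleaves the BMP antagonist chordin. In BME it was at 5.19, 5.35 and 3.17 FPKM in untreated lines 682, 700 and 889, at 7.41 in the mock library, and at 9.07 and 8.89 with dox in lines 700 and 889. Both dox libraries lay above the 4 controls, of which the mock library was highest, 1.43-fold above its untreated partner. On plastic Bmp1 was at 9.91, 12.6 and 13.0 FPKM in untreated lines 560, 700 and 889 and at 14.7, 26.5 and 41.5 with dox. All plastic dox libraries lay above the untreated ones. The mean change over the 5 dox pairs was 1.01 ± 0.44 (SD), with 0.44 in the mock pair. The limma change was 0.71 in BME (SE 0.28, unadjusted p = 0.0428, adjusted p = 0.959) and 1.05 on plastic (SE 0.37, unadjusted p = 0.0271, adjusted p = 0.562), and it failed the correction in both. The difference between environments was 0.34, with a 95% interval from -0.76 to 1.44. Over 11 alternative settings or left-out libraries the change lay between 0.53 and 0.96 in BME and between 0.71 and 1.42 on plastic.

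**Figure D4:**
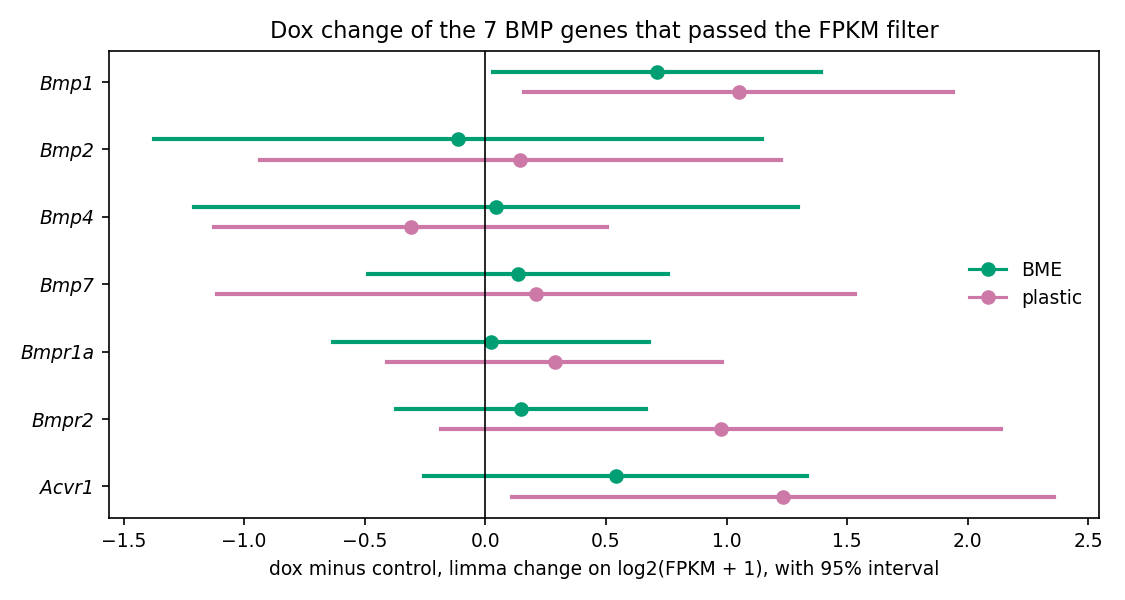
Dox minus control on the log2(FPKM + 1) scale from limma, with 95% intervals, for the 7 BMP genes that passed the FPKM filter, in BME (2 dox and 4 control libraries) and on plastic (3 and 3). Intervals leave out 0 for Bmp1 in both environments and for Acvr1 on plastic, and no gene passed the adjusted test.

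The pseudoreceptor and both antagonists among the 10 genes were at the bottom of the range, unlike other antagonists of the pathway such as Twsg1, at 13.3 to 39.3 FPKM. Bambi, a receptor-like membrane protein without a kinase, was at 0.325, 0.305 and 0.397 FPKM in untreated lines 682, 700 and 889 in BME, at 0.577 in the mock library, and at 0.519 and 0.432 with dox in lines 700 and 889. On plastic it was at 0.437, 0.0498 and 0.121 FPKM in untreated lines 560, 700 and 889 and at 0.217, 0.150 and 0.308 with dox. These levels rest on 5 to 46 rebuilt reads and were not tested. Grem1, a secreted antagonist usually made by stromal cells, was listed at 0 in 9 libraries and reached 0.123 FPKM, or 3 rebuilt reads, in the dox library of line 889 in BME, which also had the highest summed stromal level. Nog, the gene of the antagonist supplied with the medium, was listed at 0 in all 12 libraries, which at a count of 0 allows up to 3 reads per library.

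In the genome build NCBIM37, Bmpr2 lies at chr1:59821481-59927703. Bmp2 (chr2:133377895-133388621), Bmp7 (chr2:172693513-172765822), Acvr1 (chr2:58241055-58419568) and Grem1 (chr2:113586321-113598803) share chromosome 2. Bmp1 (chr14:70874364-70920067), Bmp4 (chr14:47003195-47010344) and Bmpr1a (chr14:35223920-35316527) share chromosome 14, and Nog lies at chr11:89161952-89163873.

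A list of 40 further genes of the pathway was followed beside them, of which 18 passed the filter in BME and 17 on plastic, and none was called, where 0.0231% and 0.0324% of all genes were. In BME 12 changes were positive and 6 negative, with a median of 0.11, beside 49% positive and a median of -0.01 over all genes. At an unadjusted p under 0.05, Fst and Smad7 were higher, beside 2.62% of all genes, and the signal transducers Smad1 and Smad5 were lower, beside 1.47%. In the mock pair Fst was also higher, by 0.46 against 0.86 and 0.36 in the dox pairs of lines 700 and 889, and Smad1 differed by -0.21 against -0.25 and -0.38. Smad5 and Smad7 differed little in the mock pair, by -0.008 and 0.0004. In the same dox pairs Smad5 differed by -0.48 and -0.35, and Smad7 by 0.52 and 0.51. On plastic the changes of Smad1 and Smad5 were 0.43 and 0.22 (adjusted p = 0.807 and 0.869). These rested on line 560, whose pair differed by 1.24 and 0.73. In lines 700 and 889 the pairs differed by -0.11 and 0.15 for Smad1 and by 0.11 and -0.19 for Smad5. On plastic 16 changes of the list were positive and 1 negative, with a median of 0.43, beside 51.1% positive and a median of 0.01 over all genes. The lines did not share all of these. Smurf2 differed by 0.68 in line 560 against 0.05 and 0.03 in lines 700 and 889, and Twsg1 by 0.90 against -0.05 and 0.49. Others, such as Nbl1 and Fst, differed least in line 560. Smad7 alone passed the unadjusted threshold on plastic, beside 4.56% of all genes that were higher at it. Smad7, an inhibitory SMAD that blocks type I receptors, had a plastic change of 1.16 (SE 0.37, unadjusted p = 0.0175, adjusted p = 0.512). It was at 6.56, 8.42 and 13.4 FPKM in untreated lines 560, 700 and 889 and at 13.9, 22.4 and 31.6 with dox. Among secreted antagonists, the largest changes were those of Nbl1 (1.73 in BME and 1.13 on plastic, adjusted p = 0.959 and 0.764) and Fst (0.81 and 0.98, adjusted p = 0.959 and 0.707). Their plastic pairs varied between lines 560, 700 and 889, at 0.03, 1.95 and 1.42 for Nbl1 and 0.20, 1.88 and 0.86 for Fst. The BME value of Nbl1 rested on line 889, where dox minus untreated was 1.60 against -0.01 in line 700 and a pair mean of 0.79, and its level was 2.91 and 3.34 FPKM in the line 682 controls, which have no dox partner. The co-receptor gene Rgmb had a change of -0.74 in BME (adjusted p = 0.959), but its pairs went opposite ways, by -1.10 in line 700 and 0.58 in line 889, with line 682 controls at 34.8 and 35.7 FPKM.
Of the other ligands, Bmp8b was more abundant than the 3 ligands described above, at 42.1 to 102.0 FPKM in BME and 73.2 to 338.0 on plastic, and is named here because of these values. Its neighbor Bmp8a has a similar sequence, so the division of reads between them is uncertain. The type I receptor gene Bmpr1b was listed at 0 in all 6 plastic libraries and was at most 0.0143 FPKM in BME.

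The Id genes, which BMP signaling switches on through SMAD4, served as a readout. Id1 was higher with dox in all 5 dox pairs, with limma changes of 2.73 in BME and 2.39 on plastic (adjusted p = 0.595 and 0.485). Id3 was at 0 to 2.71 FPKM in the untreated and mock libraries and at 7.67 to 56.3 with dox, with changes of 4.09 and 3.90 (adjusted p = 0.157 and 0.281). Id2 had changes of 0.80 in BME and -0.50 on plastic (adjusted p = 0.959 and 0.867). Id4 was below the filter in BME and had a change of 1.24 on plastic (adjusted p = 0.641). Id1 and Id3 thus had larger changes than any of the 7 tested BMP genes, yet neither passed the adjusted test in the full set of libraries. Without the plastic dox library of line 700, Id3 passed it on plastic with a change of 4.75 (adjusted p = 0.0318).

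The gene whose pattern lay nearest to each BMP gene was found by the Pearson correlation of log2(FPKM + 1) over the 12 libraries, centred on the mean of each table, among 11940 genes. It was Ell2 for Bmpr2 (r = 0.99), Defb8 for Acvr1 (r = 0.98), Pnpla8 for Bmpr1a (r = 0.97), Slc31a2 for Bmp1 (r = 0.96), Mia for Bmp7 (r = 0.94), Insl6 for Bmp4 (r = 0.86) and Klf4 for Bmp2 (r = 0.83). Among the BMP genes, the highest correlations were those of Bmpr1a with Bmpr2 (r = 0.82) and of Bmp1 with Acvr1 (r = 0.71). Bmpr1a and Bmpr2 were both lowest on plastic in the untreated library of line 560, at 10.2 and 2.14 FPKM. The part of that library in their correlation was not tested. The libraries share lines and treatments, so these values are descriptions, and the nearest among so many genes will lie close.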

How the data were processed

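RNA-Seq of 12 organoid libraries was analysed from 1 FPKM table per environment. The authors used kallisto for quantification and DESeq2 for group comparisons, and the submitters' processing notes name mm9 as the build. Versions and annotation are not given in the sources used here. The deposited FPKM were normalized by the authors on the 6 libraries of each table. Median-of-ratios scaling left the median change of all genes where it was (shift 0), so scaling of that kind was already in the deposited values. The authors' comparison tables also hold a mean normalized count (a signal over all libraries, deposited as a pooled value) and the authors' fold changes and p-values, which were not used.

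The mean normalized count divided by the mean FPKM gave the scale from which reads were rebuilt, and 91.1% to 93.0% of low values came out within 0.1 of a whole read. Reads served for depth and for limma-voom only, and counting limits cover counting error only. Genes with a mean of at least 0.5 FPKM were tested on log2(FPKM + 1) with limma 3.58.1 (R 4.3.3, two-sided, lmFit followed by eBayes with a trend) and no block, with Benjamini-Hochberg adjustment over all genes tested (12996 in BME, 12333 on plastic). This scale understates changes of low genes. Levels were compiled with Python 3.11.15, pandas 2.3.3, numpy 2.4.6 and scipy 1.17.1. Environments were compared by a dox-by-environment interaction term in all 12 libraries for 11977 genes.

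Libraries with the same line number come from the same organoid line, and same-line deviations from the group means correlated at 0.70 and 0.68 in BME and at 0.46, 0.61 and 0.25 on plastic. Different lines correlated at -0.48 to 0.11 on plastic, where deviations that sum to 0 pull these values down. The deviations of the 2 BME dox libraries mirror each other, so the 2 BME values are not independent. Since lines were shared, the line was also used as a replicate block. The BME controls held line 682 in both the untreated and the mock library. Fits without the block treated all libraries as independent, although lines 700 and 889 were in both arms and both environments. Apart from line 682, nothing says that a line was cultured more than once per arm. The p-values therefore measure the spread between these libraries, some of which share a line, and not between independent lines. Other alternatives were a pseudocount of 0.1, no filter, median-of-ratios scaling, limma-voom, leaving out the mock library, each library in turn, and lines 700 and 889 only. The 10 members and the gene lists were chosen with earlier results of these data known. Beyond the 10 genes, the rule names any called gene of the pathway list (none was called), the 3 largest changes of the pathway list per environment, Id1 to Id4, Smad4 and the nearest gene by correlation. Smad1, Smad5, Bmp8b, Bmp8a, Bmpr1b and Twsg1 were named outside this rule, after their values were seen.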

Additional observations from a re-analysis of the deposited data

How the results depend on the processing

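None of the 280 alternative values computed for the 7 tested BMP genes passed the adjusted test, and 247 kept their direction while 33 turned. The number of all genes called in BME, 3 as reported, was 1 with a pseudocount of 0.1 or with limma-voom, 0 with the line as a replicate block or without the mock library, and 0 to 37 when a library was left out, with 37 without the dox library of line 700. On plastic the count of 4 became 10 with a pseudocount of 0.1 and with limma-voom, 0 without the filter, 7 with the replicate block and 0 to 55 when a library was left out, with 55 without the dox library of line 700. The interaction count of 0 became 5 without the filter. The block changed no call among the BMP genes. The values that turned were these. In BME, Bmp4 was -0.53 with the block and -0.15 without the mock library, and Bmpr1a was -0.048 with limma-voom. The difference between environments was 0.22 for Bmp4 with the block and 0.27 in lines 700 and 889 only, -0.17 for Bmp7 with the block and -0.060 without the mock library, and -0.18 for Bmpr1a in lines 700 and 889 only. With a library left out, the BME changes ran from -0.58 to 0.35 (Bmp2), -0.20 to 0.42 (Bmp4), -0.13 to 0.41 (Bmp7), -0.34 to 0.38 (Bmpr1a), -0.12 to 0.41 (Bmpr2) and -0.067 to 1.15 (Acvr1). On plastic they ran from -0.12 to 0.53 (Bmp2), -0.13 to 0.73 (Bmp7) and -0.023 to 0.46 (Bmpr1a), and between environments from -0.0054 to 0.71 (Bmp1), -0.21 to 0.73 (Bmp2), -0.27 to 0.59 (Bmp7) and -0.10 to 0.62 (Bmpr1a). The cause was not tested. Where a dox library was left out in BME, the lone one was assumed to vary like the controls. Median-of-ratios scaling, already in the deposited values, is no independent check. Depth limits Bambi, Grem1 and Nog, which rest on few or no reads.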

Other observations

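Ratios within a library, which do not depend on the scaling of a table, were looked at after the values were seen and are given as a description. The level of Acvr1 divided by that of Bmpr1a was 0.255, 0.259 and 0.462 in untreated lines 682, 700 and 889 in BME, and 1.15, 0.696 and 0.749 in untreated lines 560, 700 and 889 on plastic. The means were 0.325 ± 0.118 (SD, n = 3) and 0.863 ± 0.245. Lines 700 and 889 are in both environments, and 3 libraries against 3 are too few to pass a permutation test, so no difference between environments was established. With dox it was 0.217 and 0.886 in lines 700 and 889 in BME, and 1.33, 0.959 and 3.60 in lines 560, 700 and 889 on plastic, so it was lower than untreated in 1 of the 5 dox pairs and higher in 4. The ratio does not say which of the genes differed.

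The share of Bmp7 in the summed level of Bmp2, Bmp4 and Bmp7 was 77.1% ± 12.2 (SD, n = 3) in untreated BME libraries and 55.6% ± 18.7 on plastic, and these overlapped.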
